A study of Mus musculus with 63 samples.

Results

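The genes described here belong to 3 small families known from early stages of development: the architectural chromatin proteins Hmga1 and Hmga2, the RNA-binding proteins Lin28a and Lin28b, and the IGF2 mRNA-binding proteins Igf2bp1, Igf2bp2 and Igf2bp3. The 7 genes were taken by symbol, as the members of these families, with earlier results of these data known, and all 7 are among the 23078 genes of the table. Each was followed across all 19 groups of cell type and embryonic day.

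The study sorted cells from the embryonic mouse dorsal cerebral cortex, day by day, and sequenced their RNA in 63 libraries. All embryos had the genotype Ski knock-out on the C57Bl/6 strain and carried a green fluorescent reporter, and every library is labelled female. Neural stem cells (NSC) came from Hes5::GFP embryos at E11.5, E12.5, E13.5, E14.5, E15.5, E16.5, E17.5 and E18.5 (26 libraries). Tbr2::GFP embryos gave 24 libraries of basal progenitors (BP), 1 group for each day from E12.5 to E18.5. They also gave 13 libraries of newborn neurons (NBN), from E15.5, E16.5, E17.5 and E18.5. The means of separating BP from NBN in one sort, and the deleted part of Ski, are not given in the sources used here. All groups carry the knock-out and wild-type cells were not analysed here, so no value is an effect of Ski. Groups hold 2 to 6 libraries. Whether replicates are separate embryos is not in the labels, and p-values then measure only the spread between these samples, which may be technical.

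As background, LIN28A and LIN28B bind precursors of let-7 microRNAs and block their maturation, and let-7 in turn represses mRNAs that carry matching sites, LIN28 and HMGA2 mRNAs among them. HMGA proteins bend AT-rich DNA and open chromatin, and HMGA2 is known in the brain for sustaining the self-renewal of young stem cells. IGF2BP proteins coat mRNAs in cytoplasmic granules and affect their stability, transport and translation, and in the cortex they are known from fetal progenitors.

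The pairing between let-7 and these genes is shown first, because it is the sequence feature that the families are known to share. Of 11 mature let-7 family names at 13 loci in RefSeq (build GRCm38.p6), 10 have the same seed, bases 2 to 8. The exception is let-7j. Here 4 members of the family are printed 5′ to 3′, with the seed in capitals.
let-7a-5p: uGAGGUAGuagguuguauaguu
let-7b-5p: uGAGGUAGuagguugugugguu
let-7i-5p: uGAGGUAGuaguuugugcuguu
miR-98-5p: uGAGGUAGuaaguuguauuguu

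The 7 bases that pair with this seed, CTACCTC, were searched on the transcript strand of the longest 3′ UTR of each gene (GENCODE vM21 basic annotation, GRCm38). The motif was found in all 7 genes. It occurred 4 times each in Hmga2, Lin28b and Igf2bp1, 2 times in Lin28a and 1 time each in Hmga1, Igf2bp2 and Igf2bp3. One match of each gene is printed below in its 23 base context, read 5′ to 3′ along the mRNA, with the match in capitals. The first match from the start of the UTR was taken, and the coordinates are those of the 7 matched bases.
Hmga1 (chr17:27563292-27563298, plus strand): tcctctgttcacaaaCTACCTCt
Hmga2 (chr10:120364225-120364231, minus strand): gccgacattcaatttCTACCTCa
Lin28a (chr4:134005190-134005196, minus strand): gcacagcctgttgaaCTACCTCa
Lin28b (chr10:45381023-45381029, minus strand): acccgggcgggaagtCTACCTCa
Igf2bp1 (chr11:95961779-95961785, minus strand): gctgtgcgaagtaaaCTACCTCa
Igf2bp2 (chr16:22059474-22059480, minus strand): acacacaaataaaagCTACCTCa
Igf2bp3 (chr6:49086788-49086794, minus strand): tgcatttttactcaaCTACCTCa

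In 6 of these 7 sequences an A follows the match, and in Hmga1 a T does. The printed matches are only the first of each gene. Over all matches, an A follows 1 of 4 in Hmga2, 1 of 4 in Lin28b, 3 of 4 in Igf2bp1 and 2 of 2 in Lin28a. The share over all genes is not given here. Among 20369 genes of the table with an annotated 3′ UTR, 9.08% held at least 1 match and 1.09% held 2 or more. Longer UTRs hold more matches. UTRs count as of like length where the shorter of 2 has at least 80% of the length of the longer. Of those like the Hmga2 UTR (3014 bases), 16.2% held a match and 0.0845% held 4 or more. For Lin28b (4445 bases) these shares were 24.0% and 0.227%, and for Igf2bp1 (6337 bases) 34.4% and 0.169%. For Lin28a (2775 bases), 14.9% of UTRs of like length held a match and 2.04% held 2 or more. The single matches of Hmga1, Igf2bp2 and Igf2bp3 were less rare, with a match in 8.16%, 12.2% and 13.45% of UTRs of like length. A match describes the sequence and does not show that let-7 acts there. Mature let-7 was not measured by these libraries.

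The genes lie at 7 separate loci (GENCODE vM21, GRCm38). Hmga1 is at chr17:27556497-27563674, Hmga2 at chr10:120361275-120476469, Lin28a at chr4:134003330-134018841 and Lin28b at chr10:45376620-45486395. Igf2bp1 is at chr11:95957163-96005940, Igf2bp2 at chr16:22059009-22163299 and Igf2bp3 at chr6:49085223-49214957. Hmga1 is on the plus strand and the other 6 are on the minus strand. Short reads cannot always be assigned to 1 gene, so windows of 50 bases, a length chosen here, were compared between genes. Of the 50 base windows of Hmga1, 55.0% also occur outside it. Igf2bp3 shares 18.1% of its windows with the overlapping gene Malsu1. The levels of Hmga1 and Igf2bp3 are less certain for that reason, and for the other 5 genes the share was 4.72% or less. These shares count sequence and are not the size of an error in the levels, which is unknown.

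The libraries had 16823 to 21890 genes above 0, and 15231 genes with at least 1 TPM (transcripts per length, scaled to a fixed total per library) in 3 or more libraries were tested. Ski transcripts were present throughout, at 25.3 ± 2.14 TPM (SD, n = 3) in NSC of E11.5 and 42.7 ± 5.14 (n = 3) at E18.5. Summed over 8 stem cell markers, the median was 2401 TPM in NSC, 641 in BP and 345 in NBN. The 8 BP markers summed to a median of 1056, 1796 and 237 TPM, and the 8 neuron markers to 3931, 5495 and 8588 TPM. None of these marker genes was at 0 in every library. Tbr2 (Eomes), the gene of the BP reporter, had group means of 144 to 425 TPM in NSC and 361 to 530 TPM in BP, so the NSC libraries hold BP transcripts too. Of the 63 libraries labelled female, 39 had a sum of 4 Y-linked genes of at least 10 TPM and 26 had Xist at that level.

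All 7 genes fell over the NSC days. Changes are given as the fitted straight-line change in log2(TPM + 1) from E11.5 to E18.5, ± standard error, with a Benjamini-Hochberg adjusted p over all genes from limma, and a gene is called where that p is under 0.05 and the change is at least 1, which is 2-fold. Against 7 of 7 members, 8.17% of all genes tested were called lower in the NSC course. The members' median change was -3.14 and that of all genes 0.09. Values add 1 TPM before the logarithm, which makes the changes of the low genes Lin28a and Lin28b smaller than those of their TPM. The same holds for Hmga2, which is low in late groups. In bulk RNA, fewer cells that carry a transcript and less of it per cell cannot be told apart.

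**Figure D1:**
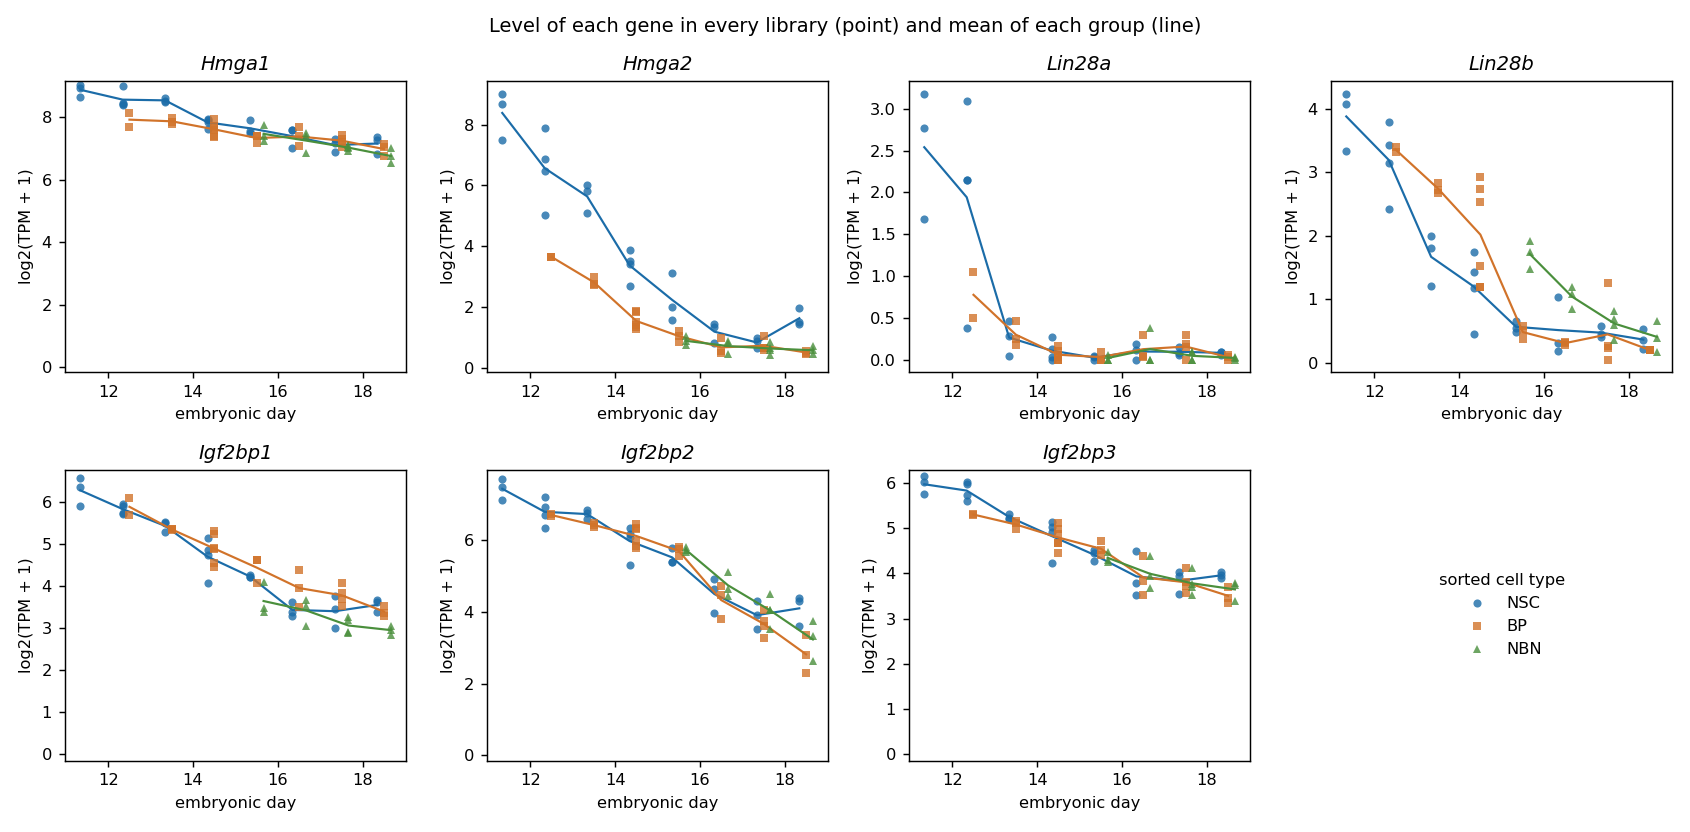
Level of each of the 7 genes as log2(TPM + 1) against embryonic day, with 1 panel per gene, a point for each of the 63 libraries and a line through the group means of NSC, BP and NBN. In NSC every gene is higher in all E11.5 libraries than in any E18.5 library, Hmga2 has the steepest course, and Lin28b of NBN lies above both progenitor types at E15.5.

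The LIN28 genes, which hold back let-7, were at low levels by mid-course. Lin28a had 5.82, 8.02 and 2.2 TPM in the 3 NSC libraries of E11.5 and 7.51, 3.42, 0.304 and 3.43 TPM in the 4 of E12.5. At E13.5 it had 0.0297, 0.377 and 0.218 TPM, which is 3.90% of the E11.5 mean. The E11.5 libraries all lie above those of E13.5, while 1 library of E12.5 overlaps them. From E14.5 on, no NSC library exceeded 0.21 TPM. Over all cell types Lin28a was listed at 0 in 16 of 63 libraries and reached 1 TPM in 7. Its fitted NSC change was -2.25 ± 0.21 (adjusted p = 6.12e-13).

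Lin28b, the paralog that was higher than Lin28a in 62 of 63 libraries, had 17.7, 15.8 and 9.07 TPM in NSC of E11.5. It had 9.71, 12.8, 4.37 and 7.79 TPM at E12.5 and 1.31, 2.48 and 2.96 TPM at E13.5. All E12.5 libraries lie above all E13.5 libraries, a step down shared by Igf2bp1 and Igf2bp3 and by 4.38% of genes tested. By E18.5 the NSC libraries had 0.441, 0.276 and 0.153 TPM, a mean of 2.05% of the E11.5 level. The change over the NSC course was -3.52 ± 0.25 (adjusted p = 6.06e-17).

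Hmga2, a well known let-7 target and a self-renewal factor of young stem cells, had the largest fitted change of the 7 in NSC. NSC libraries had 513, 404 and 178 TPM at E11.5, and 31.5, 88.0, 116 and 236 TPM at E12.5. They had 33.3, 54.9 and 63.1 TPM at E13.5 and 13.48, 5.45, 10.3 and 9.72 TPM at E14.5. The E12.5 libraries overlap those of both E11.5 and E13.5, and the E14.5 libraries are all below those of E13.5. Levels were 7.68, 1.98 and 3.01 TPM at E15.5, then 1.69, 1.5 and 0.733 TPM at E16.5, and 0.547, 0.984 and 0.812 TPM at E17.5, or 0.21% of the E11.5 mean. The fitted change was -7.54 ± 0.28 (adjusted p = 3.49e-27).

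At E18.5 Hmga2 had 1.67, 2.89 and 1.81 TPM in NSC. All 3 values lie above the E17.5 values, a step up that 32.2% of genes tested made between those days. The sum of 8 stem cell markers made it too, from 1131 to 1702 TPM at E17.5 to 3209 to 6664 TPM at E18.5, and the division marker Mki67 had 22.3 ± 7.38 TPM at E17.5 and 119 ± 30.8 TPM at E18.5 (n = 3 each). Of the 8 stem cell markers, Fabp7 (up to 4114 TPM in NSC) and Vim (up to 1432.5 TPM) weigh most in their sum. The sum of 8 neuron markers was 5856 to 6420 TPM at E17.5 and 2624 to 4959 TPM at E18.5. The part of these shifts in the Hmga2 values was not tested. None of the other 6 genes had E18.5 libraries all above or all below E17.5.

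Hmga1, the more widely expressed paralog, was the most abundant of the 7 in every NSC group by TPM, which is per length. It had 525, 495 and 405 TPM at E11.5 and 367, 362 and 390 TPM at E13.5. The next day it had 199, 242, 248 and 230 TPM, all below E13.5, and at E18.5 it had 113, 166 and 154 TPM. The last mean is 30.4% of the first, the smallest loss among the 7 genes. The change was -1.91 ± 0.13 (adjusted p = 4.03e-17).

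The Igf2bp genes all fell in NSC, each by a fitted change between those of Hmga1 and Hmga2. Igf2bp2, an mRNA-binding protein also known from metabolism, had 206, 176 and 139 TPM at E11.5 and 11.2, 19.9 and 18.7 TPM at E18.5, a change of -3.74 ± 0.21 (adjusted p = 2.11e-20). Igf2bp1, which binds and stabilises growth-related mRNAs, had 95.1, 81.3 and 58.7 TPM and then 9.41, 11.7 and 11.3 TPM. Its change was -3.14 ± 0.17 (adjusted p = 3.17e-21). Igf2bp3, a family member known from fetal tissue and tumours, had 70.3, 63.6 and 52.9 TPM and then 13.8, 15.3 and 14.51 TPM, a change of -2.37 ± 0.16 (adjusted p = 4.41e-18). For each of the 3, first and last day are far apart and the E17.5 and E18.5 libraries overlap.

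The day steps show when the levels parted. In NSC, E11.5 libraries lay above E18.5 libraries for 7 of 7 genes, against 24% of all genes tested. E14.5 libraries lay above E18.5 libraries for 5 of the 7, against 5.71% of genes, and the 2 that overlapped were Lin28a and Lin28b. From E13.5 to E14.5 a step without overlap was made by Hmga1, Hmga2, Igf2bp1, Igf2bp2 and Igf2bp3 (8.86% of genes tested). Between E15.5 and E16.5 Hmga2, Igf2bp1 and Igf2bp2 stepped down (8.61% of genes). No gene of the 7 did so from E11.5 to E12.5, from E14.5 to E15.5, from E16.5 to E17.5, or from E17.5 to E18.5, steps made by 9.13%, 2.52%, 2.48% and 11.4% of genes.

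The bend of the NSC course was measured as the height of the fitted quadratic midway through the days less the average of its 2 ends, so that a negative value is a course that sags below a straight line. It was called lower for Hmga2 (-2.11 ± 0.24, adjusted p = 8.2e-10), Lin28a (-1.36 ± 0.19, adjusted p = 5.8e-08) and Lin28b (-1.31 ± 0.22, adjusted p = 2.71e-06), that is 3 of 7, against 4.98% of genes tested. For Igf2bp1 (-0.50), Igf2bp3 (-0.40), Hmga1 (-0.20) and Igf2bp2 (-0.02) it was not called. Without E18.5, and so over a shorter span of days, the bend of Hmga2 was -0.96 (adjusted p = 0.00691). It was then short of the size of 1 and not called. With a pseudocount of 5 TPM, the bends of Lin28a (-0.55) and Lin28b (-0.81) were not called, nor was the NSC change of Lin28a (-0.88).

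Cell composition moved along the NSC course as well. In NSC of E11.5 the neuron marker sum was 739 to 2392 TPM and the stem cell marker sum 2389 to 2895 TPM, beside the E17.5 and E18.5 ranges given above. Over the whole NSC course 6 of the 8 stem cell markers were called lower and 2 higher, with a median change of -1.32. Their sum does not stand for each gene. Erythroid markers summed to 48.1 to 168 TPM at E11.5, up to 4503 TPM in 1 library of E12.5 and up to 9492 TPM in 1 of E17.5. With the erythroid sum as a covariate all 7 NSC calls were kept. Of 5 Cajal-Retzius markers 3 were called lower and of 5 microglia markers 4 were called higher over the NSC course. The part of neuron and other transcripts in these changes was not tested.

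In BP, intermediate progenitors that stem cells produce and that give rise to neurons, 5 of the 7 genes were called lower from E12.5 to E18.5, against 4.39% of genes tested. The median change of the 7 was -2.47 and that of all genes 0.09. Igf2bp2 changed most, by -4.06 ± 0.24 (adjusted p = 2.9e-19), followed by Lin28b (-3.38 ± 0.28, adjusted p = 4.53e-14), Hmga2 (-3.10 ± 0.31, adjusted p = 1.16e-11), Igf2bp1 (-2.47 ± 0.19, adjusted p = 3.3e-15) and Igf2bp3 (-1.89 ± 0.18, adjusted p = 1.31e-12). Hmga1 missed the 2-fold size with -0.92 ± 0.15 (adjusted p = 1.8e-06), and it was called without BP E12.5 replicate 2 (-1.06). Lin28a was -0.53 ± 0.24 (adjusted p = 0.0741).

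Markers of other cells moved over the same BP days. Of 5 Cajal-Retzius markers 3 were called lower, and their sum was 433 to 455 TPM at E12.5 and 278 to 349 TPM at E18.5. All 5 endothelial markers were called higher (sums of 0.985 to 1.03 and 3.62 to 15.3 TPM), as were 4 of 5 meningeal markers tested (11.4 to 22.5 and 41.2 to 58.0 TPM). Of 7 erythroid markers 5 were higher and 1 lower (0.814 to 1.94 and 217 to 629 TPM). With the erythroid sum as a covariate the 5 calls held and Hmga1 was called too (-1.26), and the part of the other markers was not tested.

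The BP libraries show where these changes lie. Hmga2 had 11.5 TPM in both libraries of E12.5, then 5.68, 5.53 and 6.86 TPM at E13.5 and 0.472, 0.407 and 0.354 TPM at E18.5. Igf2bp2 had 104 and 101 TPM at E12.5, then 45.6, 55.0 and 52.4 TPM at E15.5, then 25.2, 12.97 and 21.1 TPM at E16.5 and 5.93, 9.23 and 3.94 TPM at E18.5. Its E16.5 libraries all lie below those of E15.5, as for 2.41% of genes. Igf2bp1 had 67.2 and 50.7 TPM at E12.5 and 9.23, 10.6 and 8.88 TPM at E18.5, and Igf2bp3 had 39.0 and 38.0 TPM and then 9.998, 12.0 and 9.21 TPM. For all 7 genes the 2 libraries of E12.5 lie above the 3 of E18.5, as for 27.1% of genes tested. From E12.5 to E13.5 a step without overlap was made by 6 of 7, all but Hmga1 (14.2% of genes).

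Lin28b in BP had its lowest group means from E15.5 on. It had 8.98 and 9.48 TPM at E12.5 and 6.07, 5.6 and 5.4 TPM at E13.5. At E13.5 all 3 BP libraries lie above all NSC libraries, as they do for 26.3% of genes. The 6 libraries of E14.5 had 1.27 TPM at the lowest, a median of 3.31 and 6.61 TPM at the highest. The 3 libraries of E15.5 had 0.408, 0.291 and 0.492 TPM, all below E14.5 (7.77% of genes). At E17.5, 1 library had 1.38 TPM and the other 3 had 0.0242, 0.173 and 0.198 TPM.

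**Figure D2:**
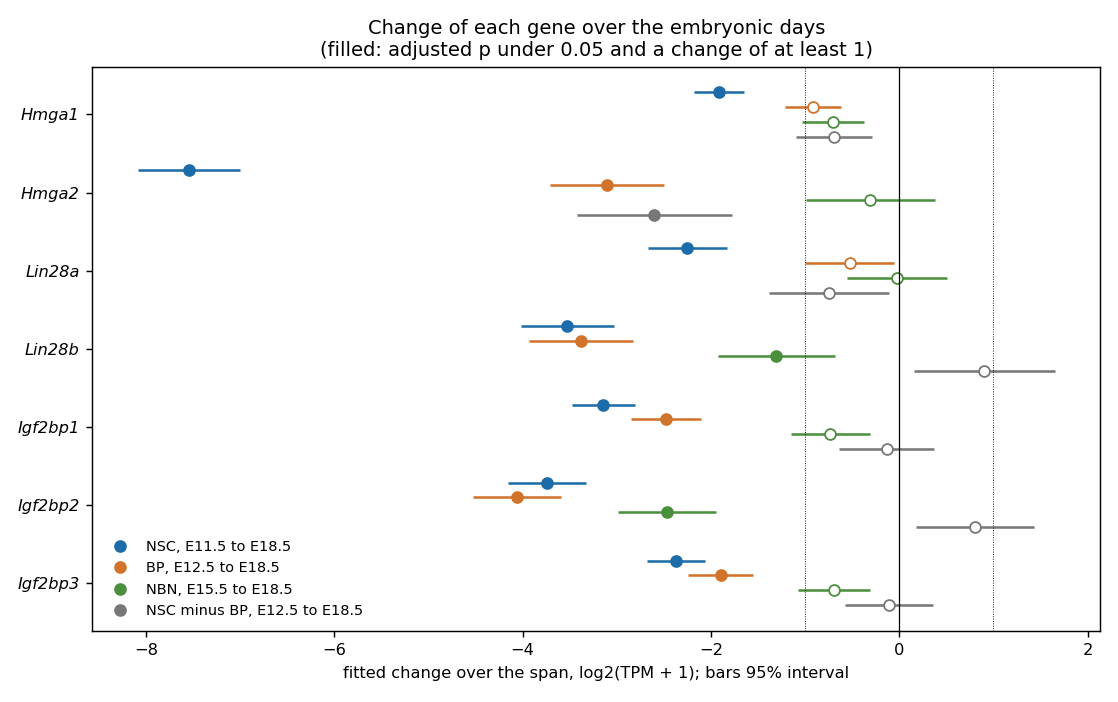
Fitted change of each gene in log2(TPM + 1) with its 95% interval, over the NSC, BP and NBN days and as NSC minus BP over E12.5 to E18.5. Filled points are called and open points are not; the 7 NSC changes are all filled, and in the difference between NSC and BP only Hmga2 is.

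Over the days that both progenitor types share, E12.5 to E18.5, only Hmga2 had a called difference between the courses of NSC and BP, 1 of 7 against 3.66% of genes called lower and 6.86% higher. Its change over these days was -5.71 in NSC and -3.10 in BP, a difference of -2.60 ± 0.42 (adjusted p = 5.98e-06). For Hmga1 the changes were -1.61 and -0.92, with a difference of -0.69 ± 0.20 (adjusted p = 0.00825) that is short of 2-fold. The difference was 0.90 ± 0.38 for Lin28b (adjusted p = 0.0669), 0.80 ± 0.32 for Igf2bp2 (adjusted p = 0.0527) and -0.75 ± 0.33 for Lin28a (adjusted p = 0.0774). For Igf2bp1 it was -0.13, with a 95% interval of -0.64 to 0.37, and for Igf2bp3 -0.11, with an interval of -0.58 to 0.36. Single libraries set the counts here. Without NSC E12.5 replicate 2 or BP E17.5 replicate 4, Lin28b was called with 1.03 and 1.02, and without NSC E12.5 replicate 3 Lin28a was called with -1.08.

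Averaged over the 7 shared days, NSC exceeded BP in Hmga2 alone, by 1.504 ± 0.14 (adjusted p = 3e-13), 1 of 7 members against 2.56% of genes called higher. Hmga1 (0.27 ± 0.07, adjusted p = 0.00062) and Igf2bp2 (0.25 ± 0.10, adjusted p = 0.0406) differed by less than 2-fold. The gap in Hmga2 was widest early. At E13.5 its lowest NSC library, at 33.3 TPM, stood above the highest BP library, at 6.86 TPM. NSC libraries lay above BP at E12.5 in Hmga1, Hmga2 and Igf2bp3 (24% of genes) and at E13.5 in Hmga1, Hmga2, Igf2bp2 and Igf2bp3 (28.4%). They did so at E14.5 in Hmga2 alone of the 7 (9.67%) and at E15.5 in Hmga1 and Hmga2 (19%). At E16.5 and E17.5 none of the 7 genes had NSC above BP (9.22% and 12.6% of genes) or BP above NSC (9.61% and 11.3%). At E18.5 NSC libraries lay above BP libraries in Hmga2, Lin28a, Lin28b, Igf2bp2 and Igf2bp3, where 29.3% of genes tested did so. For Lin28a and Lin28b this is a separation near 0 TPM. The lowest NSC and highest BP values were 0.040 and 0.036 TPM for Lin28a, and 0.153 and 0.146 TPM for Lin28b. The 8 stem cell markers summed to 593 to 649.8 TPM in BP of that day, against the higher NSC sums given above. Markers of other cells differed between NSC and BP too. All 5 interneuron markers were called higher in NSC, with a median of 3.53. All 5 Cajal-Retzius markers were called lower, with a median of -1.18, where 71 of the 15231 genes tested were called lower. Their part in the differences of the 7 genes was not tested. NSC and BP came from different reporter lines, so the line and the cell type cannot be told apart.

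NBN, the neurons just born, had 2 of 7 genes called lower from E15.5 to E18.5, against 1.44% of genes tested. The median change was -0.71 for the 7 and 0.04 for all genes. Igf2bp2 had 51.9, 55.0 and 50.1 TPM at E15.5, then 33.8, 20.8 and 24.1 TPM at E16.5, and 8.99, 12.4 and 5.16 TPM at E18.5. The days E15.5 and E16.5 do not overlap (4.86% of genes), and the change was -2.47 ± 0.27 (adjusted p = 1.09e-09). Lin28b had 2.35, 1.79 and 2.76 TPM at E15.5, 1.12, 0.785 and 1.28 TPM at E16.5 and 0.308, 0.576 and 0.124 TPM at E18.5, a change of -1.30 ± 0.32 (adjusted p = 0.00215). With a pseudocount of 5 TPM that change was -0.44 and not called.

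Markers of other cells moved over the NBN days as well. Of 8 BP markers 5 were called lower, with a median of -1.37, and their sum was 276 to 445 TPM at E15.5 and 203 to 237 TPM at E18.5. Eomes among them had 71.5 ± 25.8 and 9.49 ± 3.12 TPM (n = 3 each). Of 5 microglia markers 4 were called higher, with sums of 3.93 to 5.42 TPM and 61.0 to 84.2 TPM. Their part in the Igf2bp2 and Lin28b changes was not tested.

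The other 5 genes did not reach 2-fold in NBN. Hmga1 (-0.71, adjusted p = 0.00191), Igf2bp1 (-0.73, adjusted p = 0.012) and Igf2bp3 (-0.69, adjusted p = 0.0097) passed on p alone. Hmga2 was low on all 4 days, with means of 0.848 ± 0.188 TPM at E15.5 and 0.488 ± 0.143 TPM at E18.5 (n = 3 each), and its change was -0.31 (adjusted p = 0.643). Lin28a was at 0.299 TPM or less in all 13 libraries. Between first and last day 6 of 7 genes had no overlap, all but Lin28a, against 16.8% of genes.

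Set against the progenitors on the 4 shared days, NBN had no called member. In the comparison with BP 10.8% of genes were called in either direction, and in that with NSC 8.65%. For Lin28b the difference was 0.59 ± 0.16 (adjusted p = 0.0017) from BP and 0.47 ± 0.16 (adjusted p = 0.0146) from NSC, short of 2-fold. Its NBN libraries lay above those of BP at E15.5 (24.1% of genes) and at E16.5 (15.9%), and above those of NSC at E15.5 (19.8%). In the opposite direction, NSC libraries lay above NBN for Hmga2 and Igf2bp1 at E15.5 (29.2% of genes) and for Hmga2, Lin28a, Igf2bp1 and Igf2bp3 at E18.5 (43.3%). Lin28a was near 0 there, at 0.040 TPM or more in NSC and 0.024 TPM or less in NBN. Igf2bp1 in NBN was -0.62 ± 0.11 (adjusted p = 2.78e-06) against BP, with BP libraries all above NBN at E17.5 (21.8% of genes) and E18.5 (40.7%). Hmga2 was -0.77 ± 0.18 (adjusted p = 0.000312) in NBN against NSC. All 5 interneuron markers were called lower in NBN than in NSC, with a median of -2.58, and their part was not tested. These comparisons share the NBN libraries. BP and NBN came from the same reporter line, and any pairing of their libraries within a day was not modelled. With a pseudocount of 0.1 TPM, Lin28b was called against BP (1.39) and Hmga2 against NSC (-1.31).

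Ordered by mean TPM, NSC of E11.5 was the highest of the 19 groups for all 7 genes. Neighbours below that mostly overlapped. Of 18 neighbouring pairs, 1 had no overlap for Hmga1, Hmga2 and Lin28a, 2 for Lin28b, Igf2bp2 and Igf2bp3, and 3 for Igf2bp1. The groups were ordered by these same values. How often other genes have such gaps was not computed, so the gaps are a description only. For both Hmga1 and Hmga2 that single gap lay between NSC of E13.5 and BP of E12.5, so the 3 earliest NSC groups stood apart from every other group. For Igf2bp3 NSC of E11.5 and E12.5 stood above BP of E12.5 in the same way. For Lin28a the gap lay below BP of E12.5, and for Lin28b NBN of E16.5 stood above NBN of E17.5.

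The shares within each family are a description, with no test. TPM is per length, so levels of paralogs can be set side by side. Hmga1 exceeded Hmga2 in 63 of 63 libraries, but Hmga2 made up 41.6 ± 9.87% of their sum in NSC of E11.5 (n = 3), 4.15 ± 1.70% at E14.5 (n = 4) and 1.44 ± 0.27% at E18.5 (n = 3). In BP its share was 4.57 ± 0.96% at E12.5 (n = 2) and 0.325 ± 0.035% at E18.5 (n = 3). These shares carry the uncertainty of the Hmga1 level given above.

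The 3 Igf2bp genes together had 314 ± 60.5 TPM in NSC of E11.5 and 42.0 TPM at E18.5. Igf2bp2 made up 55.3 ± 0.33% of that sum at E11.5, 54.0 ± 3.02% at E15.5 and 39.0 ± 5.57% at E18.5 (n = 3 each). In BP its share was 54.0 ± 5.64% at E15.5, 40.0 ± 2.78% at E16.5 and 23.5 ± 5.56% at E18.5 (n = 3 each). In NBN it was 62.8 ± 4.09% at E15.5 and 31.6 ± 6.66% at E18.5 (n = 3 each). The share of Igf2bp3 was higher on the last day than on the first in each cell type, 19.95 ± 1.09% and 35.1 ± 4.32% in NSC, 19.3 ± 1.01% and 39.7 ± 2.12% in BP, and 23.2 ± 0.83% and 43.0 ± 3.16% in NBN. Igf2bp2 exceeded Igf2bp1 in 57 of 63 libraries and Igf2bp3 in 52. Igf2bp1 exceeded Igf2bp3 in 9 of 26 NSC, 13 of 24 BP and 0 of 13 NBN libraries.

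**Figure D3:**
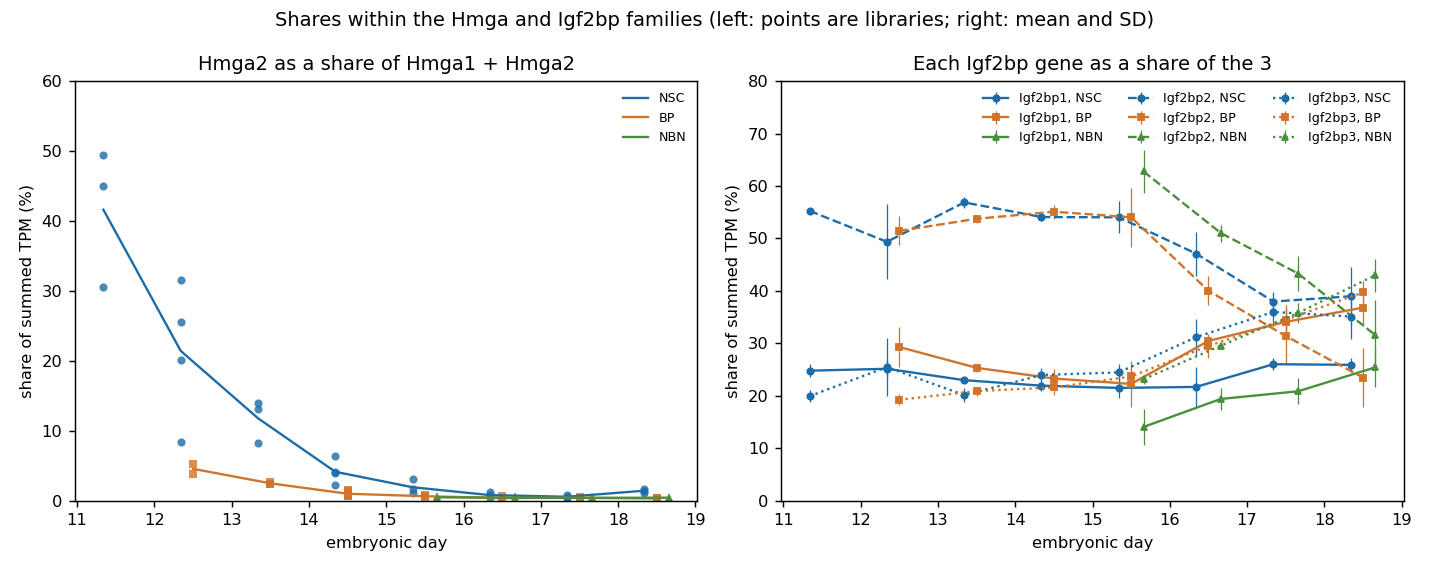
Share of summed TPM in percent against embryonic day, for Hmga2 within Hmga1 plus Hmga2 (left, a point per library and a line through means) and for each Igf2bp gene within the 3 (right, mean and SD over libraries). In NSC the Hmga2 share is 41.6% at E11.5 and 1.44% at E18.5, and the Igf2bp2 share at E18.5 is 39.0% in NSC, 23.5% in BP and 31.6% in NBN.

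Over the 19 group means of log2(TPM + 1), the levels of the 7 genes ran alike to different degrees. Pearson's r ranged from 0.598 for Igf2bp2 and Lin28a to 0.965 for Igf2bp1 and Igf2bp3, and it was 0.954 for Hmga1 and Hmga2 and 0.787 for Lin28a and Lin28b. The 19 points share their days and libraries. Among 12522 other genes that reached a group mean of 5 TPM, the 3 most like Hmga2 were Wbp11 (r = 0.990), Fndc3c1 (0.986) and Stat4 (0.986). Pearson's r does not measure the size of a change. From E11.5 to E18.5 the NSC mean went from 154 to 87.5 TPM for Wbp11, from 39.4 to 0.342 TPM for Fndc3c1 and from 11.2 to 0.329 TPM for Stat4. The 3 genes most like Lin28a were Mecom (0.957), Copg2 (0.942, from 192 to 118 TPM) and the embryonic globin gene Hbb-bh1 (0.933), which was listed at 0 in NSC of E18.5. For Lin28b they were Klhdc8b (0.954), Cdr2 (0.953) and Sntb2 (0.949). Rnf4 (0.964) and Rpusd2 (0.962) were among the 3 most like Hmga1. Igf2bp1 was most like Mettl6 (0.981), Pbx2 (0.980) and Med8 (0.980), Igf2bp2 most like Disp1 (0.974), Psme3 (0.956) and Knop1 (0.953), and Igf2bp3 most like Malsu1 (0.985), with which it shares sequence, 2610318N02Rik (0.982) and Mettl6 (0.980).

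The related lists hold genes of the same pathways, and some genes are in more than 1 list. Of 18 genes of let-7 maturation and LIN28 partners, 3 were called lower and 1 higher over the NSC course, with a median of -0.35. Over all genes, 14.8% were called higher and 8.17% lower in NSC, and 6.9% and 4.39% in BP. Lower were Trim71, a ubiquitin ligase and known let-7 target (-1.22 ± 0.13, adjusted p = 2.95e-11), the Argonaute Ago2 (-1.26 ± 0.16) and Dicer1, the enzyme that cuts let-7 precursors (-1.06 ± 0.19), and higher was Ago4 (1.10 ± 0.18). Without E11.5, Trim71 (-0.70), Ago2 (-0.85) and Ago4 (0.76) were not called. In BP Dicer1 alone of the 18 was called (-1.07 ± 0.22), and with the transcript length covariate it was -0.85 and not called. Of 4 let-7 host genes listed, Huwe1 alone was analysed here, and it was not called in NSC (-0.22, adjusted p = 0.245).

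Among 25 genes listed as let-7 targets, the members left out, 12 were called lower and 2 higher over the NSC course, with a median of -0.81 beside 0.09 for all genes. Seed matches were present in 17 of the 25 UTRs. Of the genes named in this paragraph, Ccnd1 and Cdk6 held 0 matches. Lower were the cyclin Ccnd1 (-3.77 ± 0.19, adjusted p = 2.41e-22), the ubiquitin enzyme gene Cdc34 (-1.77 ± 0.10) and the transcription factor Plagl2 (-2.35 ± 0.13). Higher were the insulin receptor substrate Irs2 (1.39 ± 0.15) and the kinase gene Cdk6 (adjusted p = 0.000444). In BP, 7 were lower, among them E2f6 (-1.67 ± 0.12), Cdc34 (-1.32 ± 0.11) and Ccnd1 (-2.19 ± 0.21), and 2 were higher, Cdk6 (3.12 ± 0.35) and Irs2 (1.75). No target was called in the NBN course.

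The seed matches were then set beside the courses of all genes, as a description with no test. Leaving out the 7, the NSC course was called lower for 8.16% of 12690 genes without a match, 9.87% of 1297 genes with 1, 8.97% of 156 genes with 2 and 26.9% (7) of 26 genes with 3 or more. The median changes were 0.09, 0.06, -0.10 and -0.41. In BP the shares called lower were 4.28%, 6.01%, 7.69% and 7.69% (2 of 26). UTR length moved with the number of matches, with medians of 1073, 2242, 3537.5 and 4682.5 bases, and its part in these shares was not tested. Hmga2, Lin28b and Igf2bp1, each with 4 matches, had NSC changes of -7.54, -3.52 and -3.14, but Igf2bp2 with 1 match had -3.74. These changes include the added 1 TPM. By TPM, the E11.5 mean over the E18.5 mean in NSC was 172 for Hmga2, 48.9 for Lin28b and 7.25 for Igf2bp1. It was 93.2 for Lin28a with 2 matches. For the genes with 1 match it was 10.5 (Igf2bp2), 4.28 (Igf2bp3) and 3.29 (Hmga1).

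Of 9 other high mobility group genes, 3 were called lower in NSC, the chromatin proteins Hmgb2 (-2.11 ± 0.20), Hmgb3 (-1.28 ± 0.08) and Hmgb1 (-1.10 ± 0.10), and none of the 9 was called in BP. As the last day minus the first, these 3 were -0.92, -0.93 and -0.63 and not called. Of 11 proteins known from IGF2BP granules, 1 was called in NSC, the transport factor Stau2 (1.04 ± 0.11), and none in BP. Stau2 was 0.82 without E11.5 and 0.90 under library weights, and then not called. Of 7 mRNAs known to be bound by IGF2BP, 2 were higher in NSC, the growth factor Igf2 (1.98 ± 0.45) and the growth cone gene Gap43 (1.16 ± 0.25). Gap43 was 0.32 without E11.5 and not called, and Igf2 was 1.07 as the last day minus the first (adjusted p = 0.139) and not called. In BP Igf2 was higher (2.09 ± 0.51) and Myc lower (-1.35 ± 0.24), and with the erythroid sum as covariate Igf2 was 1.02 and not called.

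**Figure D4:**
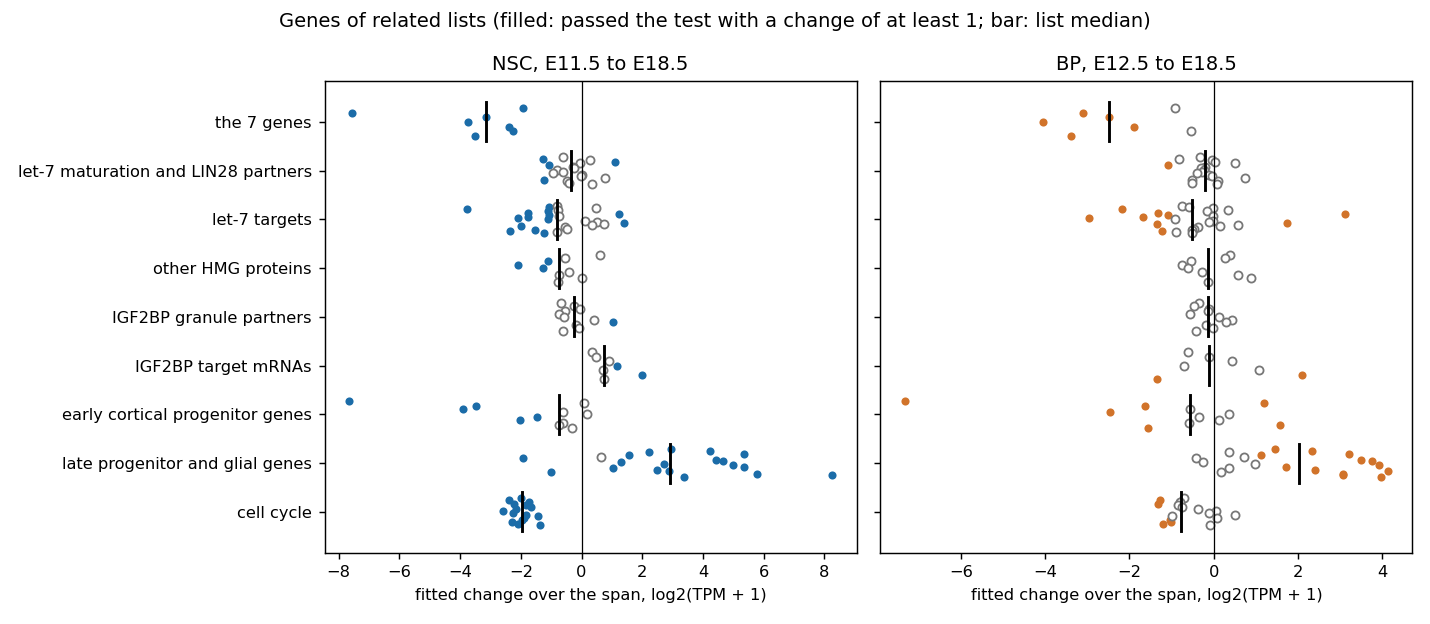
Fitted change in log2(TPM + 1) over the NSC days (left) and BP days (right) for the 7 genes and for each gene of the related lists, a point per gene. Filled points are called and the bar is the list's median; all 7 genes are to the left of 0, while the late progenitor and glial list has its median at 2.91 in NSC and 2.03 in BP.

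Lists of progenitor age and division give the setting. Of 11 early cortical progenitor genes, 5 were lower in NSC, with the retinoid carrier Crabp2 (-7.66 ± 0.28), the transcription factor Dmrt3 (-3.46 ± 0.33) and Lrrn1 (-2.01 ± 0.15) leading, and in BP 4 were lower and 2 higher. Of 20 late progenitor and glial genes, 17 were higher and 2 lower in NSC, with the matrix protein Tnc at 8.26 ± 0.29 and the receptor Fgfr3 at -1.92 ± 0.18, and 13 were higher in BP. All 16 cell cycle genes were lower in NSC, at a median of -1.97, and 5 of 16 in BP, at -0.77. The NSC changes of the 16 cell cycle genes ran from -2.60 (Mcm3) to -1.36 (Tyms), a range that holds Hmga1, Lin28a and Igf2bp3, while Hmga2, Lin28b, Igf2bp1 and Igf2bp2 lay below it. Mki67 had 125.5 ± 30.6 TPM in NSC of E11.5, beside its E18.5 level given above. Mki67 does not stand for each division gene. In every alternative run, last day minus first included, Mcm2, Rrm2 and Mcm5 stayed called lower, at -1.30, -1.21 and -1.58 at the weakest. The part of division in the changes of the 7 genes was not tested.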

How the data were processed

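The authors deposited TPM values for each gene and library. The submitters' processing notes name kallisto 0.43.0 as the tool, and both GRCm38.p2 and mm10 as builds. No counts were used here, so depth and counting error are unknown and only the spread between libraries gives the precision.

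The 7 genes and the related lists were chosen with earlier results of these data known. From the TPM, log2(TPM + 1) was computed, and a gene was tested if 3 or more libraries reached 1 TPM. The fit, by limma 3.58.1 (R 4.3.3) with a variance trend, had 19 group means over the 63 libraries. Courses are slopes through group means, times the span of days. Benjamini-Hochberg adjustment ran over all 15231 genes in each of 8 comparisons, and the fit was tested on simulated data. Named are the 7 members, up to 3 called genes of smallest adjusted p per list with the largest opposite one, and the 3 most alike genes, of which 1 is not reported here. Dicer1, Cdk6 and Irs2, beyond that rule in 1 of the courses, and Mcm3 and Tyms were named after their values were seen.

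Sequences come from RefSeq (GRCm38.p6) and from GENCODE vM21, a release that the authors may not have used. The alternatives were pseudocounts of 0.1 and 5, other low-value filters, 2 scalings, library weights, only a comparison's libraries, a replicate block, last day minus first, and leaving out E18.5 or each library. Chosen after seeing the data were leaving out E11.5, leaving out 8 libraries beyond 1.5 SD on the first axis within groups, and covariates for transcript length and erythroid markers.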

Additional observations from a re-analysis of the deposited data

Results flagged for a closer look

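In 35 combinations of gene and group with 4 or more libraries, a library was looked for that stood far from the rest, which chance gives in about 1 group of 20. Hmga1 in NSC of E12.5 had replicate 4 at 513 TPM above the other 3 libraries at 338, 342 and 348 TPM, a gap that is 0.924 of the group's range on the log2 scale. The erythroid marker sum of that library was 4503 TPM, and its part in the Hmga1 value was not tested. Hmga2 in BP of E17.5 had replicate 4 at 1.03 TPM, above 0.486, 0.551 and 0.556 TPM, with a gap of 0.853 of the range. The same library had the highest Lin28b of its group, 1.38 TPM.

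The courses of 2 genes differed between NSC and BP in the test of the difference itself. It was -2.60 for Hmga2 (adjusted p = 5.98e-06) and -0.691 for Hmga1 (adjusted p = 0.00825), from limma over E12.5 to E18.5.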

How the results depend on the processing

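All 7 NSC course calls were kept in every alternative run except a pseudocount of 5 (Lin28a, -0.88) and a mean of at least 5 TPM, which tests neither Lin28a nor Lin28b. Counts of members moved as follows. A pseudocount of 0.1 gave 1 member higher in NBN versus BP and 1 lower in NBN versus NSC, in place of 0, and called Lin28a in the BP course (-1.95). A pseudocount of 5, and likewise the 5 TPM filter, left 1 of 2 lower in the NBN course and 1 of 3 in the bend. Library weights gave 1 higher in NSC versus BP course in place of 0 (Igf2bp2, 1.01). Leaving out each library gave 0 to 1 higher and 1 to 2 lower there. Hmga1 in the BP course was called with median-of-ratios scaling (-1.03) and the erythroid covariate (-1.26). With only the libraries of the comparison, Lin28a had no value in the BP course, the NBN course, NBN versus BP or NBN versus NSC. Hmga2 had none in the NBN course.

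Directions that turned were all of values not called. Igf2bp3 in NBN versus BP was 0.0012 (pseudocount 0.1), 0.081 (quantile scaling), 0.059 (median-of-ratios), 0.021 (without 8 libraries) and 0.032 (erythroid covariate). The bend of Igf2bp2 was 0.17 (quantile), 0.087 (median-of-ratios), 0.42 (without E18.5), 0.016 (without 8 libraries) and 0.14 (length covariate). In NBN versus NSC, Igf2bp2 was 0.072 (quantile), 0.0055 (median-of-ratios) and 0.20 (without E18.5), Igf2bp3 was 0.065 (quantile) and Lin28a 0.0047 (without 8 libraries). Lin28a in the NBN course was 0.027 (without E18.5) and 0.0019 (last day minus first). Igf2bp1 in NSC versus BP course was 0.21 (last minus first), and Hmga2 in NBN versus BP 0.0060 (without 8 libraries). Leaving out each library gave -0.042 to 0.015 for Lin28a (NBN course), -0.055 to 0.0058 for Hmga2 and -0.049 to 0.060 for Igf2bp3 (NBN versus BP), -0.14 to 0.0061 for Igf2bp2 (NBN versus NSC) and -0.14 to 0.061 for its bend. The cause was not tested.

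Counts over all genes moved by more than 1.5 times in these cases. Last minus first: NSC course lower 1244 to 671, NSC versus BP course higher 1045 to 563 and lower 558 to 196. The 5 TPM filter: NBN course higher 502 to 223, bend lower 758 to 411, NSC versus BP course higher to 657. Pseudocount 0.1: BP course higher 1051 to 1588, NBN course higher to 775, NBN versus BP higher 876 to 1317, NBN versus NSC higher 388 to 731 and lower 930 to 1419, bend higher 476 to 737 and lower to 1455, NSC versus BP higher 390 to 740 and lower 71 to 157. Pseudocount 5, higher and lower: NSC course 2254 to 1367 and to 765, BP course to 485 and 668 to 349, NBN course to 184 and 220 to 132, bend to 263 and 224, NSC versus BP course to 540 and 253, NSC versus BP to 170 and 25, NBN versus BP to 470 and 776 to 400, NBN versus NSC to 149 and 456. Quantile scaling: bend lower to 431. Without E11.5: bend higher to 259, NSC course lower to 721. Without E18.5: NBN course higher to 259, NBN versus NSC higher to 251, bend higher to 291 and lower to 200, NSC course lower to 1915, NSC versus BP course lower to 1200.

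Quantile scaling moved the median of all genes by -0.15 in the NSC course and by 0.11 in the bend. It moved the share of calls that were higher from 64.4% to 53.8% (NSC course), 61.1% to 50.6% (BP course), 38.6% to 58.7% (bend; 51.8% with median-of-ratios) and 29.4% to 42.0% (NBN versus NSC). Same-numbered replicates deviated together at a mean r of 0.0397 (194 of 505 pairs over 0.1), other numbers at -0.0149, and 12 of 63 libraries correlated best with their own number. Numbers were not taken to pair samples. That check pooled all days and lines, so it cannot decide on pairing within a day. On the first axis within groups, E16.5 replicates 1, 2 and 3 lay at 2.61, -1.43 and -1.18 SD in BP and 1.95, -0.83 and -1.12 SD in NBN. At E17.5 replicate 4 lay at 1.61 SD in BP and -0.14 SD in NBN. A block on replicate number changed no call of a member (Hmga2 -7.49 in the NSC course). Without counts, the noise of levels near 0, as for Lin28a, cannot be separated from the spread between libraries.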

Other observations

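The 6 BP libraries of E14.5 fell into a higher and a lower set of 3 for most of the genes. Replicates 1, 5 and 6 had Lin28b at 5.66, 6.61 and 4.74 TPM, and replicates 2, 3 and 4 had 1.27, 1.29 and 1.88 TPM. Hmga2 had 2.62, 2.57 and 1.83 TPM in the first set and 1.53, 1.62 and 1.42 TPM in the other. Igf2bp1 (36.6, 39.0 and 29.2 against 21.1, 22.4 and 28.8 TPM), Igf2bp2 (78.8, 86.4 and 80.1 against 53.6, 55.6 and 62.2 TPM) and Igf2bp3 (28.3, 33.8 and 30.4 against 21.0, 24.4 and 24.4 TPM) followed the same order. Hmga1 had the opposite order, with 192, 169 and 164 against 246, 203 and 211 TPM. On the leading axis of differences between libraries of a group, which holds 29.4% of that variance, the sets lay at 1.54, 1.39 and 1.07 SD and at -2.12, -1.21 and -0.67 SD. The rank correlation of level with transcript length was 0.1001, 0.0916 and 0.0733 in the first set and -0.00403, 0.0225 and 0.0270 in the other. With that correlation as a covariate the BP change of Lin28b was -3.22 and still called.

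In NSC of E14.5, replicate 2 had the lowest Hmga2 (5.45 TPM), Lin28b (0.367 TPM), Igf2bp1 (15.8 TPM), Igf2bp2 (38.8 TPM) and Igf2bp3 (17.8 TPM) of 4 libraries. It lay at -2.82 SD on the same axis. These sets were seen in the values and are not groups of the study.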
